A study of Homo sapiens with 8 samples.

Results

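The 9 genes described here encode carriers and a receptor for water-soluble vitamins and choline: SLC19A1, SLC46A1 and FOLR1 for folate, SLC19A2 and SLC19A3 for thiamine, SLC23A1 and SLC23A2 for ascorbate, and SLC44A1 and SLC44A2 for choline. They were taken by symbol from the 23346 genes listed, and all 9 were found. Positions below are on GRCh37 (hg19), counted from 1. Polyadenylated RNA had been sequenced from hCMEC/D3, an immortalised clonal line derived from the endothelium of small human brain vessels and used to model the blood-brain barrier in culture. The 8 libraries were labelled as replicates of this line and formed 1 group, with no treatment or control named, so the genes are compared with each other and across libraries. The labels did not say whether the replicates were separate cultures, so p-values measure only the spread between these libraries, which may be technical.

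Brain endothelium cannot make folate, thiamine or ascorbate, and these charged or polar nutrients cross cell membranes on dedicated carriers. The reduced folate carrier SLC19A1 exchanges folate for organic anions, SLC46A1 moves folate together with protons, and FOLR1 binds folate at the cell surface and takes it up by endocytosis. SLC19A2 and SLC19A3 carry thiamine, the precursor of the cofactor of transketolase and pyruvate dehydrogenase. SLC23A1 and SLC23A2 couple ascorbate uptake to sodium, and SLC44A1 and SLC44A2 are choline transporter-like proteins, choline being the head group of phosphatidylcholine. In brain, FOLR1 is best known from the choroid plexus epithelium.

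Total counts ranged from 69388544 to 90205244 per library. Every count was an even number. The counts were therefore taken to hold each read pair as 2, which the sources used here did not state, and halving them gave 34694272 to 45102622 read pairs. The numbers of read pairs, counting intervals and limits below rest on that reading. Libraries differed in how they represented long transcripts. The slope of a library's deviation from the gene means was 0.09 to 0.15 (log2 per doubling of transcript length) in replicates 1 and 3 to 6, and -0.23, -0.11 and -0.34 in replicates 2, 7 and 8. The parallel slope per 10 percentage points of GC content was -0.19 to -0.10 in the first 5 and 0.29, 0.10 and 0.37 in the other 3. The labels named no batch, date or lane for these libraries. All 10 endothelial markers reached 1 CPM in every library (summed level 2265 to 4312 CPM). Of the 10 choroid plexus epithelium markers 1 did, SLC4A5, while TTR, OTX2 and HTR2C had no counts in 5, 5 and 7 libraries. KCNJ13, CLIC6, AQP1 and CLDN3 had counts in every library, with means of 0.292, 0.136, 0.711 and 0.206 CPM. The list also holds FOLR1 and summed to 10.7 to 15.1 CPM. In the epithelial, mural cell, astrocyte, neuron and microglia lists 2 of 6, 5 of 8, 1 of 6, 2 of 6 and 0 of 6 markers reached that level, with summed levels of 26.6 to 37.7, 47.3 to 74.2, 201.6 to 443.6, 35.5 to 89.7 and 0.544 to 1.46 CPM. Among all genes listed 51.3% reached it, so the mural cell share, 62.5%, was above that of all genes. CSPG4, RGS5, PDGFRB, ACTA2 and ABCC9 of the mural cell list had means of 32.9, 14.4, 9.57, 4.74 and 3.67 CPM. KRT8 and KRT19 of the epithelial list had 26.1 and 2.61 CPM. GJA1 of the astrocyte list (352.7 CPM) and MAP2 of the neuron list (58.1 CPM) carried most of the summed levels of those lists. AQP4, STMN2 and P2RY12 of the astrocyte, neuron and microglia lists had no counts in any library. SYT1 was the other neuron marker with at least 1 CPM in every library, at a mean of 4.17 CPM. The part of any other cell type in the values below was not tested.

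Of the 9 genes, 6 were detected, that is, reached 1 CPM in all 8 libraries, CPM being the count after scaling for library size. Among all genes listed, 51.3% were detected. The 6 were SLC44A2, SLC44A1, SLC19A1, SLC19A2, SLC23A2 and SLC46A1. SLC23A1, SLC19A3 and FOLR1 lay under 1 CPM in every library. Each nutrient therefore had at least 1 detected carrier, and in the thiamine and ascorbate pairs 1 member was detected and the other was not. To compare genes, levels are given per kilobase of the canonical transcript (RPKM). The 9 genes spanned mean levels from 73.5 RPKM for SLC44A2 to 0.0134 RPKM for FOLR1.

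**Figure D1:**
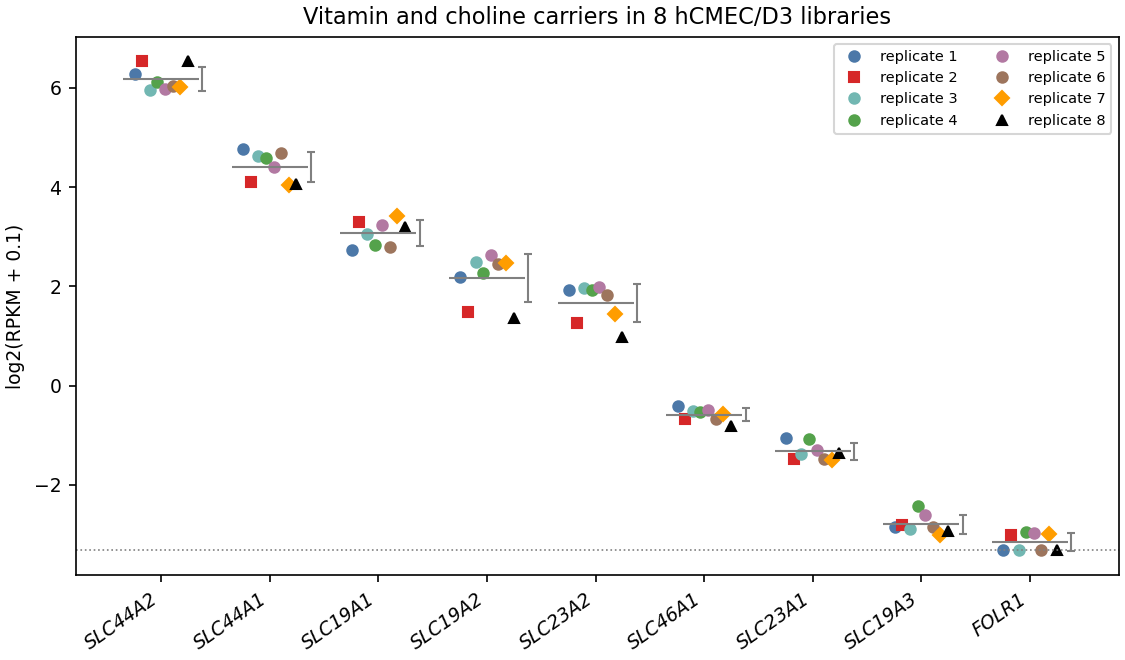
Levels of the 9 carrier genes as log2(RPKM + 0.1) in 8 hCMEC/D3 libraries. Each symbol is a library, the grey line is the mean and the bar is 1 SD; the dotted line marks an RPKM of 0, where 4 libraries of FOLR1 lie. SLC44A2 is highest and FOLR1 lowest, and replicates 2 and 8 lie above the other libraries in SLC44A2 and below them in SLC19A2 and SLC23A2.

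The choline transporter-like genes were the highest. SLC44A2 (chromosome 19, 10713121 to 10755235, plus strand, 22 exons) had 263, 312, 209, 234, 212, 223, 217 and 313 CPM in replicates 1 to 8, or 73.5 ± 12.9 RPKM (SD, n = 8). Replicates 2 and 8 were the highest libraries, and the other 6 lay between 209 and 263 CPM. Among all detected genes with a known length, its mean RPKM stood at the 91.3 percentile. SLC44A1 (chromosome 9, 108006929 to 108153682, plus strand, 16 exons), the choline carrier also found on mitochondria, had 284, 179, 257, 251, 221, 268, 172 and 174 CPM, or 21.5 ± 4.36 RPKM (SD, n = 8). Here replicates 2, 7 and 8 were the lowest, and the other 5 lay at 221 CPM or above. SLC44A1 stood at the 68.5 percentile.

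Within every library SLC44A2 exceeded SLC44A1 per length, by 1.77 ± 0.46 on the log2(RPKM + 0.1) scale (SD, n = 8; p = 0.00781 in an exact permutation test that flips the signs of the 8 differences, two-sided; adjusted p = 0.00804 over the 36 pairs of the 9 genes). The smallest p this test can give with 8 libraries is 0.00781. The size of that difference depended on the length assigned to SLC44A1. Its canonical transcript is 10482 nt long, but 4537 nt of its exons lie inside the gene span in the deposited table. With the shorter length SLC44A1 had 49.7 ± 10.1 RPKM and the difference was 0.57. On the authors' CQN values, a log2 scale adjusted for length and GC content, it was 0.55 ± 0.10 and positive in 8 of 8 libraries. On CPM, with no length adjustment, the log2 ratio ran from -0.30 in replicate 3 to 0.85 in replicate 8 and was above 0 in replicates 2, 7 and 8 alone. The mean difference per length without these 3 libraries was 1.46.

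Among the folate genes, SLC19A1 (chromosome 21, 46934629 to 46962385, minus strand, 6 exons) was the highest. It had 32.8, 48.8, 41.2, 35.2, 46.6, 34.3, 53.0 and 44.9 CPM in replicates 1 to 8, or 8.44 ± 1.49 RPKM (SD, n = 8). Replicate 7 was highest and replicate 1 lowest, a range of 1.62-fold. Its canonical transcript also runs past the deposited span: of 4991 nt, 2841 nt lie inside, and with that length the level was 14.8 ± 2.62 RPKM. SLC46A1 (chromosome 17, 26721661 to 26733230, minus strand, 6 exons), the proton-coupled folate transporter, ranged from 3.03 to 4.26 CPM with a median of 3.78, or 0.568 ± 0.0592 RPKM (SD, n = 8). It had the smallest spread of the 9 genes, with a CV of 10.4%. SLC19A1 exceeded it per length by 3.66 ± 0.33 (log2, SD, n = 8) in 8 of 8 libraries (exact permutation p = 0.00781, adjusted p = 0.00804), and by 4.49 ± 0.29 on the CQN values.

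The level of SLC46A1 carries an uncertainty of counting. Of its 6489 nt of canonical exons, 5226 nt (80.5%) lie inside the span of SARM1, a gene on the opposite strand that had 9.37 ± 1.07 CPM (SD, n = 8). That span is of the whole gene, introns included, and the overlap of exons with exons was not measured. The library kit does not mark strand, so strand could not separate the 2 genes. The handling of reads shared by 2 genes was not given in the sources used here, so the part of SARM1 in these counts is not known.

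FOLR1 (chromosome 11, 71900602 to 71907367, plus strand, 4 exons), the folate receptor alpha, had 1 read pair in each of replicates 2, 4, 5 and 7 and 0 in the other 4. In replicates 1, 3, 6 and 8 finding none had upper limits of 0.108, 0.0967, 0.103 and 0.0873 CPM in the 95% exact interval. The level of 3 read pairs, the limit used below, was 0.0880, 0.0786, 0.0840 and 0.0710 CPM in these libraries. The 4 read pairs among all libraries gave 0.0128 CPM (95% exact Clopper-Pearson interval 0.00350 to 0.0329). Intervals and limits of this kind cover counting error only, because PCR copies were not marked by molecular identifiers. The observed level of FOLR1 was thus under the limit of 3 read pairs in all 8 libraries, and no fold against it is given. The other folate receptor genes of the table, FOLR2 and FOLR3, had means of 0.0216 and 0.0224 CPM.

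Of the thiamine carriers, SLC19A2 was detected and SLC19A3 was not. SLC19A2 (chromosome 1, 169433149 to 169455208, minus strand, 6 exons) had 16.0, 9.77, 19.8, 17.2, 22.0, 19.4, 19.6 and 8.92 CPM in replicates 1 to 8, or 4.59 ± 1.33 RPKM (SD, n = 8). Replicates 2 and 8 were low and did not overlap the other 6, which lay between 16.0 and 22.0 CPM. SLC19A3 (chromosome 2, 228549926 to 228582745, minus strand, 6 exons), the carrier whose loss causes biotin- and thiamine-responsive basal ganglia disease, had 5 to 16 read pairs per library. Its level ran from 0.122 CPM in replicate 7 (95% exact interval 0.0395 to 0.284) to 0.441 CPM in replicate 4 (0.252 to 0.715), with a median of 0.201. It was above the limit of 3 read pairs in every library, and the intervals of its highest and lowest libraries overlapped. SLC19A2 exceeded SLC19A3 per length in 8 of 8 libraries (exact permutation p = 0.00781, adjusted p = 0.00804). The difference was 4.97 ± 0.48 on log2(RPKM + 0.1) (SD, n = 8) and 2.38 on log2(RPKM + 1). SLC19A3 reached at most 0.0845 RPKM, under the pseudocount of 0.1 RPKM, so neither value is a measured fold. The authors gave SLC19A3 and FOLR1 no CQN value.

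The sequences upstream of these 2 thiamine carrier genes are shown because the pair shares a substrate and holds a detected gene and a gene under 1 CPM. They are the 250 bases before the annotated start from RefSeq on GRCh38.p14, minus strand in both cases, 5′ to 3′, with CG dinucleotides in capitals. For SLC19A2, which has more than 1 annotated start, the most upstream is used.
SLC19A2, chr1:169485971-169486220: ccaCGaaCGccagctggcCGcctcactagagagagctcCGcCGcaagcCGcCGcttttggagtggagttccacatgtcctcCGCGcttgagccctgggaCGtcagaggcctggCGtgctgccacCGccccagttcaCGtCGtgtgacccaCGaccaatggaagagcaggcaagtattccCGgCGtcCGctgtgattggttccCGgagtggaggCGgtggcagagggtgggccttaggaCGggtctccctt
SLC19A3, chr2:227718029-227718278: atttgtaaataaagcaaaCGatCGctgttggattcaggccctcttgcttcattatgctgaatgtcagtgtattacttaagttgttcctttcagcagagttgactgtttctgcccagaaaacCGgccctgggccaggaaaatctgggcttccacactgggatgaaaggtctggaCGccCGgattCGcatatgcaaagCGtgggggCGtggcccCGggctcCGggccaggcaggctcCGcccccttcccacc
The SLC19A2 stretch held 21 CG dinucleotides at a GC content of 65.2%, and the SLC19A3 stretch held 11 at 54.8%. Over 27305 promoters of the same length, 1 per gene, the median was 11 CG dinucleotides (quartiles 3 and 23), so SLC19A3 was at the median and 70.2% of promoters held fewer than SLC19A2. The letters TATAAA, searched on both strands, were in neither stretch and in 11.1% of all promoters. Of the 9 genes, 7 had an entry. The first listed start held 30 CG dinucleotides for SLC44A1, 17 for SLC44A2, 18 for SLC46A1, 5 for SLC23A1 and 5 for SLC19A1. Further starts held 38, 26 and 11 for SLC19A1 and 25 for SLC44A2. Which start was used in these cells cannot be read from counts per gene.

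Of the ascorbate carriers, SLC23A2 (chromosome 20, 4833002 to 4990939, minus strand, 17 exons), the form found in most tissues, had 25.8, 16.0, 26.7, 25.6, 26.9, 23.8, 18.1 and 13.1 CPM in replicates 1 to 8, or 3.16 ± 0.783 RPKM (SD, n = 8). Replicates 2, 7 and 8 were the lowest and lay under the range of the other 5, which began at 23.8 CPM. SLC23A1 (chromosome 5, 138702885 to 138719039, minus strand, 15 exons), the form known from intestine and kidney, had 21 to 31 read pairs per library. It ranged from 0.585 to 0.880 CPM with a median of 0.659, close under the level that counted as detected. The counting interval of its highest library, 0.594 to 1.26 CPM, overlapped that of its lowest, 0.375 to 0.870 CPM. SLC23A2 exceeded it per length by 2.99 ± 0.34 (log2, SD, n = 8) in 8 of 8 libraries (exact permutation p = 0.00781, adjusted p = 0.00804), and by 3.95 ± 0.28 on the CQN values. SLC23A1 overlaps PAIP2 on the opposite strand, which had 90.7 ± 12.9 CPM, over 436 nt (19.0%) of its canonical exons, so part of its few counts is uncertain.

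All 36 pairs of the 9 genes had an adjusted p under 0.05 per length. Any 2 genes whose levels differ in the same direction in every library give such a p. Pairs of other genes were not tested, so the count is not shown to be particular to these carriers. In 35 of the pairs the sign was the same in 8 of 8 libraries. The remaining pair was SLC19A3 and FOLR1. In this and the other pairs with FOLR1, 8 in all, the level of FOLR1 on the log scale is close to the pseudocount of 0.1 RPKM, so no size is given for them. The order of mean RPKM was SLC44A2, SLC44A1, SLC19A1, SLC19A2, SLC23A2, SLC46A1, SLC23A1, SLC19A3 and FOLR1. One neighbouring pair was not resolved on other length adjustments. SLC19A2 exceeded SLC23A2 by 0.50 ± 0.27 (log2, SD, n = 8) with canonical lengths, by 0.14 with the mean length of the protein-coding transcripts (adjusted p = 0.141 in the exact permutation test), and by 0.00 ± 0.26 on the CQN values, where it was higher in 4 of 8 libraries (adjusted p = 0.977 in the same permutation test). On CPM, with no length adjustment, the direction turned: the mean log2 ratio was -0.43, and SLC23A2 was higher in every library except replicate 7. Levels themselves moved with the length: with the mean over protein-coding transcripts SLC44A2 had 140.9 RPKM, SLC44A1 38.3, SLC19A1 20.4, SLC46A1 1.49, SLC23A1 0.501 and SLC19A3 0.120. The other neighbouring pairs of detected genes kept their direction on every length adjustment. SLC44A1 exceeded SLC19A1 by 1.33 ± 0.54 with canonical lengths, 1.73 with lengths inside the deposited span, 0.89 with mean lengths and 1.54 ± 0.38 on the CQN values. SLC19A1 exceeded SLC19A2 by 0.91 ± 0.59, 1.71, 2.06 and 2.02 ± 0.14 in the same order of settings, and by 0.53 with canonical lengths without replicates 2, 7 and 8.

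**Figure D2:**
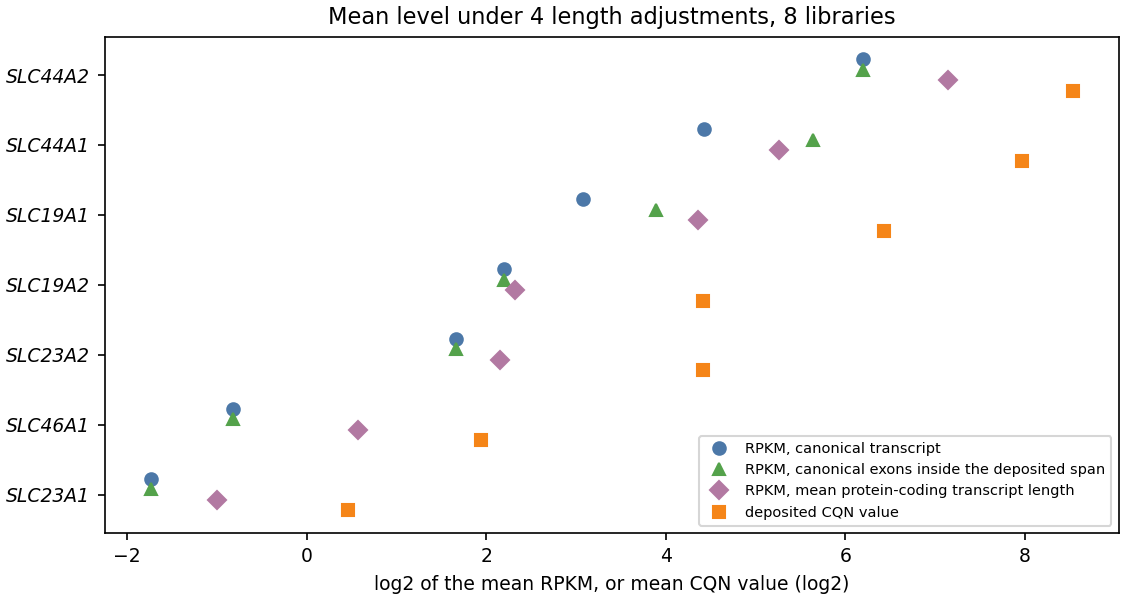
Mean level of the 7 genes with a CQN value under 4 length adjustments, on a log2 axis; RPKM and CQN values have different zero points, so only the order and the gaps within a symbol type compare. The order is the same for each symbol type, except that SLC19A2 and SLC23A2 share a CQN mean of 4.41.

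The spread between libraries was set against genes of the same abundance by testing in edgeR how well each gene fitted the trended dispersion. None of the 6 detected carriers varied more than the trend at an adjusted p under 0.05, and none had an unadjusted p under 0.05. Of all 11980 detected genes 4.66% varied more at that adjusted p, so none among 6 does not set the carriers apart. SLC19A2 came closest, with a biological coefficient of variation of 30.1% against 25.2% on the trend (edgeR adjusted p = 0.651). With DESeq2's fitted trend in place of edgeR's, at 18.2% for this gene, SLC19A2 was called (goodness-of-fit adjusted p = 0.0169). That setting called 2811 of the 11980 detected genes, so the call does not set SLC19A2 apart. SLC46A1 varied least, at 15.2% against 24.8%. Without replicates 2, 7 and 8 the edgeR trend for SLC19A2 was 9.07%, so with all 8 libraries spread was judged against a wider trend.

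How the carriers moved across libraries differed between CPM and the CQN values. On CPM, SLC19A2 and SLC23A2 were lowest in replicates 8 and 2, SLC44A1 was lowest in replicates 7, 8 and 2, and SLC44A2 was highest in replicates 2 and 8. These are the libraries with negative length slopes, and the part of length and GC content in each gene's spread was not tested. On the CQN values the SD fell from 0.40 to 0.15 for SLC23A2, from 0.30 to 0.15 for SLC44A1 and from 0.49 to 0.34 for SLC19A2. It went from 0.24 to 0.16 for SLC44A2 and stayed at 0.26 for SLC19A1. Among the 15 pairs of detected carriers, the SD of the log2 ratio was smaller on CQN values than on CPM in 11, with medians of 0.26 and 0.40. It was larger for SLC44A2 with SLC19A1 (0.40 on CQN values against 0.33 on CPM). The same held for SLC44A1 with SLC19A2, SLC23A2 and SLC46A1 (0.46, 0.24 and 0.25 against 0.41, 0.21 and 0.23). Pairs of other genes were not compared, so the narrowing is not shown to be particular to the carriers.

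**Figure D3:**
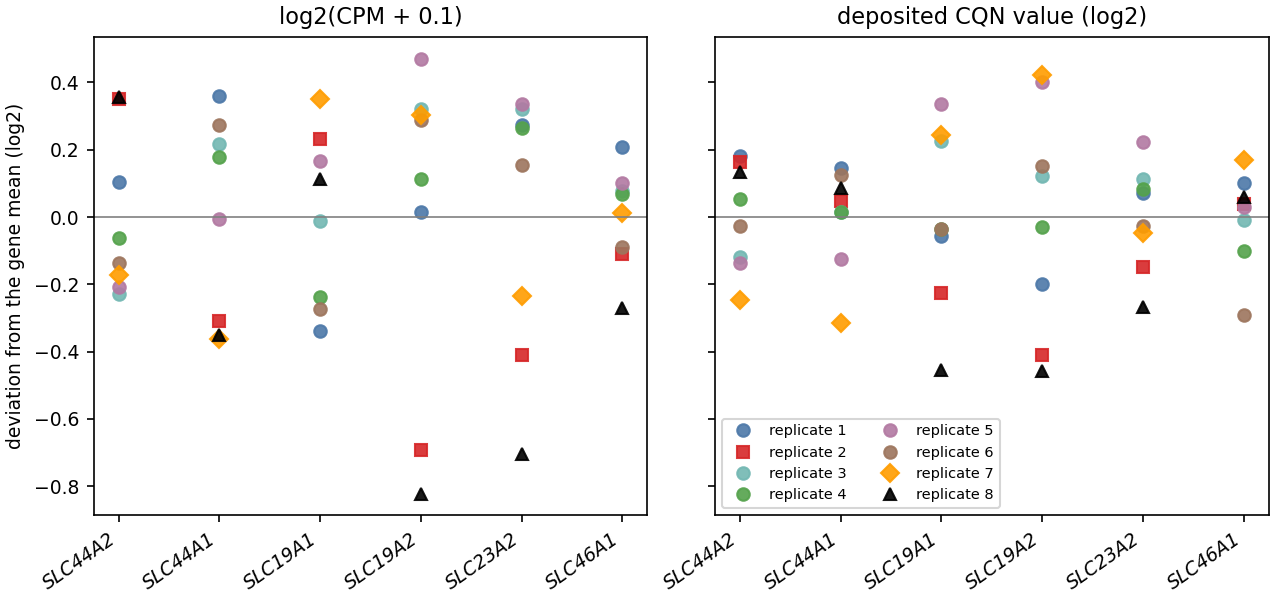
Deviation of each library from the gene's mean (log2) for the 6 detected carriers, on log2(CPM + 0.1) at left and on the deposited CQN values at right. Replicates 2 and 8 lie far below the mean in SLC19A2 and SLC23A2 on CPM; on CQN values SLC23A2 contracts, and replicates 8 and 2 are the lowest libraries in SLC19A1, SLC19A2 and SLC23A2.

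The ratio of SLC19A1 to SLC19A2, members of the same protein family with different substrates, was among those that narrowed, with an SD of 0.60 on CPM and 0.14 on CQN values. On CPM it was 0.82 to 1.08 (log2) in replicates 1 and 3 to 6, 1.43 in replicate 7, and 2.31 and 2.32 in replicates 2 and 8. On CQN values it lay between 1.83 and 2.21 in all 8 libraries. Both genes were then lowest in replicate 8 (5.98 and 3.95) and next lowest in replicate 2 (6.21 and 4.00), and both were among their highest in replicates 5 and 7 (6.77 and 6.68 for SLC19A1, 4.81 and 4.83 for SLC19A2). On CPM SLC19A1 had instead been above its mean in replicates 2 and 8.

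**Figure D4:**
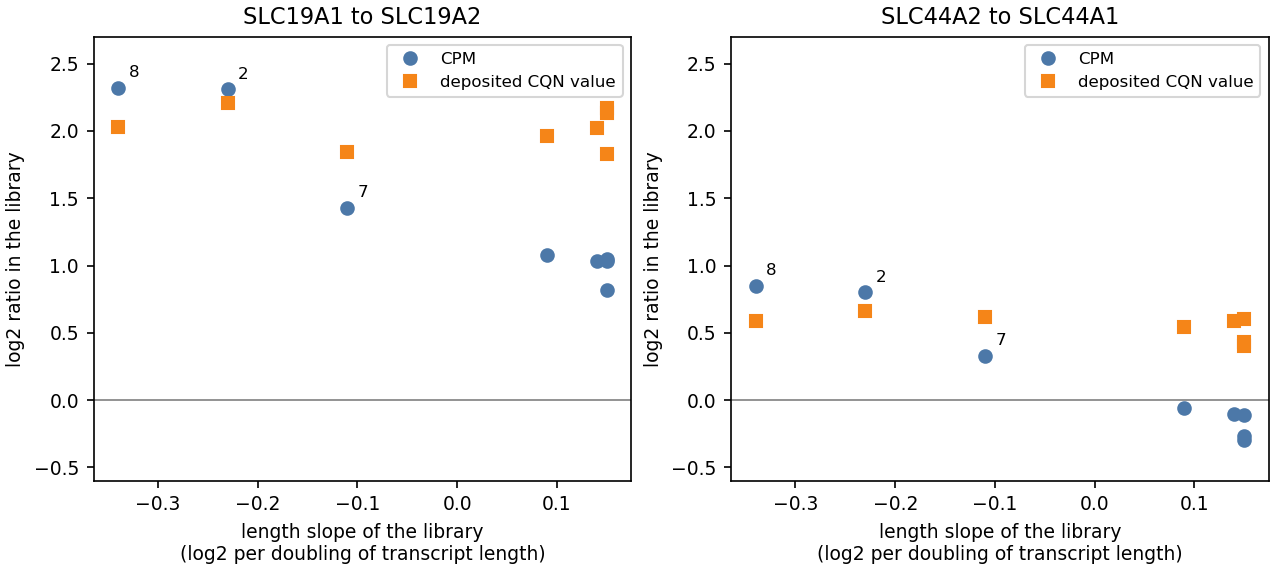
Log2 ratio of SLC19A1 to SLC19A2 (left) and of SLC44A2 to SLC44A1 (right) in each library against the library's length slope, on CPM (circles) and on CQN values (squares); replicates 2, 7 and 8 are numbered. The CPM ratios are higher in the 3 libraries with negative slopes, while the CQN ratios stay between 1.83 and 2.21 and between 0.40 and 0.66.

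Genes with a similar course over the 8 libraries were named for SLC44A2, the highest carrier, and SLC19A2, the carrier with the largest CQN spread, by Pearson's r of CQN values among the other 11979 detected genes. For SLC44A2 they were IFITM3, IFITM1 and IFI6 (r = 0.995, 0.983 and 0.981 over 8 libraries), which are genes named for their induction by interferon, with 0.95, 0.988 and 0.958 on log2 CPM. IFITM1 and IFITM3 are close paralogs, so their counts are uncertain where reads match both. For SLC19A2 they were RBMS1, an RNA-binding protein, FHL2, a LIM-domain protein, and LAMB3, a laminin chain (r = 0.989, 0.986 and 0.985), with 0.976, 0.464 and 0.866 on log2 CPM. FHL2 was thus less like SLC19A2 on CPM than on CQN values. With 8 libraries high values are common: 163 and 319 genes had an r of at least 0.9 with SLC44A2 and SLC19A2 on CQN values, and 600 and 814 on log2 CPM.

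The carriers sat among other uptake routes for vitamins and choline. Of 17 other vitamin carriers and receptors, 12 were detected (70.6%), against 51.3% of all genes listed. The highest per length were CD320, the receptor for transcobalamin-bound vitamin B12, at 57.3 ± 21.3 RPKM, and SLC2A1, the glucose carrier that also takes up dehydroascorbate, at 39.4 ± 5.18 RPKM (SD, n = 8). SLC2A1 was therefore 39.4 RPKM against 3.16 RPKM for SLC23A2, the higher of the ascorbate carriers. The undetected genes were the riboflavin carrier SLC52A1, the folate receptors FOLR2 and FOLR3, the retinol receptor STRA6 and the endocytic receptor LRP2, with means of 0.717, 0.0216, 0.0224, 0.0503 and 0.143 CPM. Of 9 other choline carriers, 4 were detected (44.4%), under that share. FLVCR2, reported as a choline carrier of brain endothelium, had 14.0 ± 1.499 RPKM and FLVCR1 had 2.99 ± 0.474 RPKM, both under SLC44A1. Among those not detected were SLC44A3 and SLC44A4, at 1.09 and 0.482 CPM, the organic cation carrier SLC22A2, at 0.00344 CPM, and the high-affinity neuronal choline carrier SLC5A7, which had no counts in 6 libraries.

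Of all genes listed, 51.3% were detected, and the choline enzymes were near that share, at 54.55%. The folate, thiamine and ascorbate lists were mostly detected. Of 20 folate enzymes 17 were, with a median over the list of 21.4 RPKM, against 1.39 RPKM over all genes with a length and 11.4 RPKM over the detected ones. The highest were GGH, which trims folate polyglutamates, at 112.5 ± 12.3 RPKM and TYMS, thymidylate synthase, at 68.2 ± 3.51 RPKM. ALDH1L1, ALDH1L2 and FTCD were not detected, at 0.0697, 1.57 and 0.538 CPM. Of 10 thiamine enzymes 9 were detected (median 22.4 RPKM), led by transketolase TKT at 131 ± 21.6 RPKM and PDHB, a subunit of pyruvate dehydrogenase, at 59.5 ± 4.54 RPKM. The transketolase-like gene TKTL1 was not detected (0.0877 CPM).

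Of 11 choline enzymes 6 were detected (median 6.64 RPKM), near the 51.3% of all genes listed. CHPT1, which joins choline to diacylglycerol, had 29.7 ± 7.27 RPKM, and ALDH7A1, which makes betaine, had 16.2 ± 2.45 RPKM. CHKB, PCYT1B, CHDH, BHMT and CHAT were not detected, whereas choline kinase alpha, CHKA, had 11.4 ± 1.79 RPKM. CHDH, which opens the route from choline to betaine, had 0.308 CPM. Of 13 genes that use or recycle ascorbate 11 were detected (median 20.4 RPKM), led by GSTO1, which can reduce dehydroascorbate, at 188 ± 51.2 RPKM and the collagen lysyl hydroxylase PLOD2 at 115.5 ± 33.1 RPKM. EGLN3 and DBH were not detected (0.521 and 0.0124 CPM). Of 4 regulators reported for folate carriers, RXRA (13.9 ± 1.96 RPKM), NRF1 (7.23 ± 0.358 RPKM) and VDR (1.55 ± 0.319 RPKM) were detected and PPARGC1A was not, with no counts in 6 libraries.

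**Figure D5:**
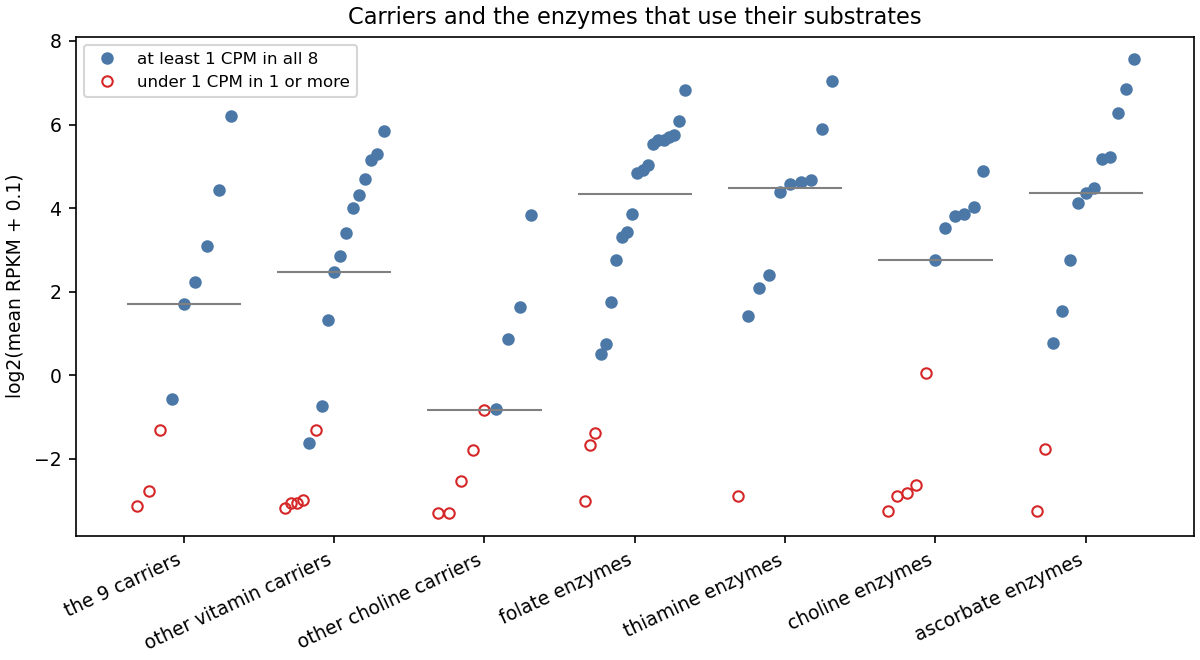
Mean level over 8 libraries, as log2(mean RPKM + 0.1), of the 9 carriers and of 6 related gene lists. Each circle is a gene, filled where it had at least 1 CPM in all 8 libraries and open otherwise, and the grey line is the list median. The medians of the folate, thiamine, choline and ascorbate enzymes lie above those of the carrier lists.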

How the data were processed

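Libraries of 8 hCMEC/D3 replicates came from Illumina's TruSeq RNA kit, version 2, which does not mark strand; the kit is named per the labels' protocols. CASAVA 1.9, TopHat2 2.0.6, HTSeq and hg19 are named without their roles in the submitters' processing notes; annotation and use of strand were not given in the sources used here. The authors deposited raw counts per gene (whole numbers, 0 of 186768 odd) and CQN-normalised values, named so per the file headers and read as log2 from the deposited values, for 13962 genes. All 16 columns were matched by replicate number.

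CPM were computed with TMM-scaled library sizes (edgeR 4.0.16, R 4.3.3, DESeq2 1.42.0 for alternatives). RPKM used canonical transcript lengths from GENCODE 44 lifted to GRCh37; 19467 genes matched by symbol and 1989 by a RefSeq synonym. Deposited starts were read as 0-based and are printed 1-based. Pairs of genes were compared on log2(RPKM + 0.1) within libraries by an exact permutation test, two-sided, over all 256 sign patterns, with Benjamini-Hochberg adjustment. Spread was tested with edgeR's goodness of fit on the trended dispersion over the 11980 genes with at least 1 CPM in all libraries, adjusted over all of them, and the script was tested on simulated counts. Named genes were the 9 carriers, of each list the 2 genes highest per length and those not detected if at most 5, and the 3 most correlated genes of 2 carriers; CHKA and VDR were added after their values were seen, as were genes of the marker lists. Some items of the lists are not reported here. Members and lists were chosen with earlier results of these data known. Alternatives covered scaling, lengths, pseudocount, filters, dispersion trend and left-out libraries.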

Additional observations from a re-analysis of the deposited data

How the results depend on the processing

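Samples could not be paired between conditions because they form 1 group, and the pairing used was of genes within a library. The 6 detected carriers were the same with DESeq2 size factors and without replicates 2, 7 and 8; a minimum of 0.5 CPM added SLC23A1, and a minimum of 10 counts added SLC19A3 as well. Called pairs numbered 36 of 36, 15 of 15 among detected carriers, 35 of 36 with the mean protein-coding length, and 20 of 21 on CQN values, where fewer genes had a value. In both of the last settings the pair not called was SLC19A2 and SLC23A2. No pair reversed under the alternatives of scaling, length, pseudocount, CQN values or a left-out replicate; on CPM without any length adjustment SLC19A2 against SLC23A2 did (-0.43 against 0.50). SLC19A2 was the 1 carrier above the variation trend with DESeq2's trend, which called 2811 genes against 558; removing length and GC trends called 765 genes and leaving out replicates 2, 7 and 8 called 299, with no carrier among either at an adjusted p under 0.05 and 1 each at an unadjusted p under 0.05 in edgeR's test (SLC19A2 at 0.0474 and SLC19A1 at 0.0117). The mean protein-coding length moved the levels of 7 carriers by more than their SD, all but SLC19A2 and FOLR1, and lengths inside the deposited span moved those of SLC19A1 and SLC44A1; no change of scaling or left-out library did so. SLC19A3 and FOLR1 were limited by depth. The exon lengths behind the authors' counts were not stated. The canonical exons inside the deposited span and the halved counts were alternatives chosen after seeing the data.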
